A study of Mus musculus with 9 samples.

Results

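The genes described here are 10 stress and growth-arrest genes of the FoxO and p53 pathways in mouse gastrocnemius, a calf muscle: the sestrins Sesn1, Sesn2 and Sesn3, the growth-arrest genes Gadd45a and Cdkn1a, the p53 regulator Mdm2, the factors Foxo1, Foxo3 and Foxo4, and Klf15. They were taken as all probe sets annotated to these names, 25 probe sets of 45037 on the array, of which 24 are listed to 1 gene alone, and as 10 genes of 18193 tested. The list was drawn up and its genes selected on earlier results of these data, in which Sesn1 and Gadd45a were higher in castration than in sham muscle. Values of castration against sham are therefore a description, and the values of testosterone against castration use the same castration arrays.

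Muscle was taken from outbred CD-1 mice, young adults that had not been fasted, at day 14 after surgery. Testosterone mice were castrated and given a 2.5 mg testosterone pellet with 60 days of release, castration mice were castrated and given a placebo pellet, and sham mice underwent sham surgery and likewise carried a placebo pellet. A group comprised 3 Affymetrix arrays, with the RNA of 3 animals combined on each, so an SD is the spread between pools. The 27 animals on the arrays came from groups of 12 treated mice each.

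FoxO factors are transcription factors that insulin and IGF signalling keeps out of the nucleus through the kinase Akt. When that signalling is low they switch on genes of protein breakdown, autophagy and cell cycle arrest, in muscle among them the ubiquitin ligases of atrophy. p53 switches on an overlapping set of arrest and repair genes. Sestrins are stress-induced proteins that restrain the growth kinase complex mTORC1, in part through the GATOR2 complex, and activate AMPK. Klf15 is a metabolic transcription factor induced by glucocorticoids that promotes amino acid breakdown in muscle.

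Promoters are shown for the genes whose values stood apart most, Sesn1, Gadd45a and Klf15, and for Cdkn1a, the textbook p53 target, to set beside them. Each is the RefSeq sequence (GRCm38.p6) of 250 bases before to 50 bases after an annotated start, 5′ to 3′ on the gene's strand. Capitals mark matches on either strand to the FoxO site GTAAACA, the p53 half-site or the E-box CACGTG, the site of clock factors. The E-box was added after the sequences had been read. The first Sesn1 promoter lies at chr10:41810324-41810623, plus strand, the second at chr10:41887189-41887488, plus strand. The Gadd45a promoter lies at chr6:67037358-67037657, minus strand, that of Klf15 at chr6:90462326-90462625, plus strand, and the first of Cdkn1a at chr17:29090729-29091028, plus strand.
Sesn1 first promoter: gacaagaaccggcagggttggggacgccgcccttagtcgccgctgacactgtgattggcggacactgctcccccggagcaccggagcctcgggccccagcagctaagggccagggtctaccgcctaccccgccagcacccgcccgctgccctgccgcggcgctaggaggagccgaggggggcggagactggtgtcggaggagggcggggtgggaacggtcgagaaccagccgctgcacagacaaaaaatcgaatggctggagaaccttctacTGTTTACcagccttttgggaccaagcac
Sesn1 second promoter: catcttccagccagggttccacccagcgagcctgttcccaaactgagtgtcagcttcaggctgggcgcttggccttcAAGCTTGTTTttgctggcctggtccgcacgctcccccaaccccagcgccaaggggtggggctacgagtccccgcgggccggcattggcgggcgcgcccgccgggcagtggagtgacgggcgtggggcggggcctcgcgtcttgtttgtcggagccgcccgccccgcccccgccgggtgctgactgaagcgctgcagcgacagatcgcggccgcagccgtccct
Gadd45a promoter: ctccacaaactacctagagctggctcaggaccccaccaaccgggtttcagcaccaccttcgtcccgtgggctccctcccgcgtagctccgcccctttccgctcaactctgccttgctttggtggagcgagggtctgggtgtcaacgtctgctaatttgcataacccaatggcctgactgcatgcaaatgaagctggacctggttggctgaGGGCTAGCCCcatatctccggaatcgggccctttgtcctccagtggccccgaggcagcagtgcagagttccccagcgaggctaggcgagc
Klf15 promoter: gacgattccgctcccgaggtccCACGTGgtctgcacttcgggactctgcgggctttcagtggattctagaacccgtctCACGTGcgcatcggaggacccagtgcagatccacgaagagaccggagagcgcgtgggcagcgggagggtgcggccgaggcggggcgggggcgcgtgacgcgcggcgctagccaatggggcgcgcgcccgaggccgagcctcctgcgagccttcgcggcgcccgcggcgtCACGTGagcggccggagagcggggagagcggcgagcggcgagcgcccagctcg
Cdkn1a first promoter: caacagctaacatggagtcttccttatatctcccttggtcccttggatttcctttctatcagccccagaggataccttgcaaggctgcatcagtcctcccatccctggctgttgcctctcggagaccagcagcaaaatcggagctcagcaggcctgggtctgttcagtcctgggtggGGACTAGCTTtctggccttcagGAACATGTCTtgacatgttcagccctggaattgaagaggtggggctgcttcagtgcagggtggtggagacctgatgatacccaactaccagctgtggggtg

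RefSeq promoters matched 9 of the 10 genes, 11 promoters in all, and the missing one is Foxo4. The FoxO site stood in the first Sesn1 promoter, from base 23 after the start, and in that of Mdm2. Of all 32851 promoters of this length, 3.65% held it. A p53 half-site stood in the second Sesn1 promoter, in those of Gadd45a and Mdm2 and, in 2 copies, in the first promoter of Cdkn1a, against 8.36% of all promoters. The second Cdkn1a promoter, not printed here, held 0 matches to the sites searched. The Klf15 promoter held 3 E-boxes, where 7.15% of all promoters held any. That promoter had 47 CG pairs and 73.3% G and C bases, against medians of 7 and 52.7% over all promoters. The E-box holds a CG pair, so the share over all promoters is not a matched background. The androgen and glucocorticoid receptor half-site AGAACA, found in 19.0% of all promoters, was not in these 11 windows. They held 54.7% to 75.0% G and C bases. No 2 matches in the printed promoters overlapped. These are matches of letters, not sites shown to be bound. On chromosome 10, Sesn1 and Foxo3 had only 1 protein-coding gene between them, Armc2, whose arrays overlapped between castration and sham.

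Expression is given as log2 values per probe set, on which 1 unit is a doubling. Array medians lay between 3.15 and 3.26, and a probe set near that level is dim. Levels are compared between arrays for the same probe set, never between genes. The genes of muscle fibres averaged 13.63 to 13.67 on all 9 arrays over 10 markers. Sham 2 and testosterone 2 stood apart, with mean correlations with the other arrays of 0.972 and 0.981, against 0.989 to 0.991 for the rest. Markers of other cells differed between arrays. The 10 measured adipocyte markers of 12 averaged 5.25 to 6.64 in testosterone, 5.13 to 5.18 in castration and 5.42 to 6.50 in sham arrays. The 9 measured fibroblast and matrix markers of 10 averaged 7.05 to 7.42 in testosterone, 7.74 to 8.05 in castration and 6.88 to 7.77 in sham arrays. The 12 macrophage and lymphocyte markers averaged 4.21 to 5.45 in testosterone, 4.23 to 4.40 in castration and 4.32 to 4.79 in sham arrays, with 7 of them near the array medians. The 10 endothelial markers averaged 5.54 to 5.82 in testosterone, 5.75 to 6.05 in castration and 5.21 to 5.77 in sham arrays. Testosterone 2 and sham 2 were the highest of their groups for adipocyte and for macrophage and lymphocyte markers. Both were the lowest for fibroblast and endothelial markers. For fibroblast and matrix markers, sham 1 and sham 3 read 7.77 and 7.75, against 6.88 on sham 2. The 6 epidermal markers, 4 of them near the array medians, averaged 4.55 on sham 2 and 3.52 to 3.99 on the other arrays. The part of these markers in the results below was not tested. In RNA from whole muscle, fewer cells of a type and less RNA per cell cannot be told apart.

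Across the 10 genes, Sesn1 gave the largest log2 differences of castration against sham and of testosterone against castration, and those of the other 9 genes were below 0.5 in size. Of the 10 genes, 8 were higher and 2 lower in castration than in sham muscle, with a median log2 difference of 0.32, against 0.01 over all genes. With testosterone against castration, 3 were higher and 7 lower, with a median of −0.16, against −0.01 over all genes. With testosterone against sham, 8 were higher and 2 lower, with a median of 0.06, against 0.01 over all genes. Of the 8 genes higher in castration, Sesn3, Gadd45a, Mdm2, Foxo3 and Foxo4 differed less from sham without sham 2. Sesn1, Cdkn1a and Klf15 differed more. With quantile normalisation repeated, castration differed from sham by 0.06 for Mdm2, −0.01 for Foxo4 and −0.26 for Foxo1. Foxo1, Foxo3 and Klf15 were then lower in testosterone than in sham, by −0.18, −0.02 and −0.06. Sesn1 differed there by −0.19.

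The 3 castration arrays lay above all 3 sham arrays for 5 of the 10 genes: Sesn1, Gadd45a, Mdm2, Foxo3 and Klf15. Over all genes this held for 5.17%, the opposite order for 3.72%, and either order for 8.89%. The counts of testosterone against castration use the castration arrays on which the genes were chosen, and nothing is read from them. In testosterone against castration, the arrays of 3 genes did not overlap, Sesn1, Gadd45a and Klf15, all lower with testosterone, where 4.79% of all genes were lower in this way, 4.22% higher and 9.01% either. The count was 5 without testosterone 2, with Foxo3 and Foxo4 added, where 17.3% of all genes did not overlap, and 6 without castration 3, with Cdkn1a also added, where 17.2% did not. In testosterone against sham, only Foxo3 did not overlap, where 6.47% of all genes did not. That count was 2 without testosterone 2, 2 without testosterone 3 and 3 without sham 2, where 14.6%, 17.5% and 12.9% of all genes did not.

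No gene passed the limma test at an adjusted p of 0.05. This held for 0 of the 10 genes and 0% of all 18193 in each pairwise comparison and in the F test over the 3 groups. At an unadjusted limma p under 0.05, 4 of the 10 stood in castration against sham (4.72% of all genes). In testosterone against castration 3 did (3.48%), and in testosterone against sham 0 (4.35%). Nothing is read from the first count, since the genes were chosen on that comparison. Nor is anything read from the second, since it uses the same castration arrays.

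**Figure D1:**
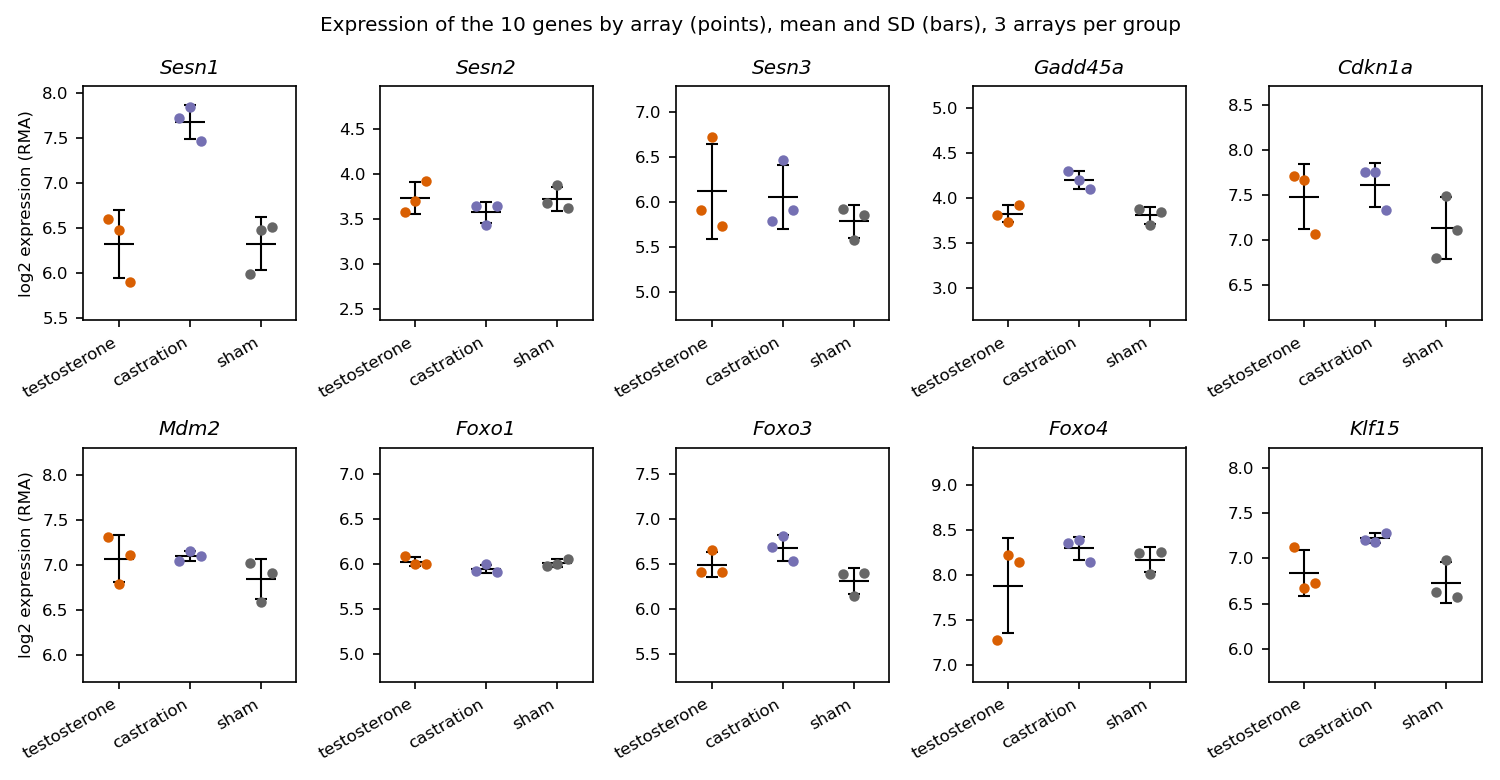
Log2 expression of the 10 genes on each array, in a panel per gene with the testosterone, castration and sham arrays as points and the mean with its SD as bars (n = 3 arrays per group, each panel spanning the same range of 2.6 log2 units). The castration arrays of Sesn1, at 7.47 to 7.84, lie above all testosterone arrays, at 5.90 to 6.60, and all sham arrays, at 5.99 to 6.52.

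Sesn1, the sestrin first known as a p53 target, was 2.55-fold higher in castration than in sham muscle and 2.55-fold lower with testosterone than in castration muscle. It read 6.60, 6.48 and 5.90 on the testosterone arrays, 7.72, 7.84 and 7.47 on the castration arrays, and 5.99, 6.48 and 6.52 on the sham arrays. All 3 castration arrays were high, and the testosterone and sham arrays overlapped almost fully. The log2 difference was 1.35 (SE 0.21) for castration against sham. For testosterone against castration it was −1.35 (SE 0.21), with a limma adjusted p of 0.132 over all genes. Testosterone and sham muscle differed by −0.00 (SE 0.21), with a 95% interval of −0.49 to 0.48. That difference ran from −0.19 with quantile normalisation repeated to 0.21 without testosterone 3. Without sham 2 and testosterone 2, the arrays that stood apart, castration differed from sham by 1.43 and testosterone from castration by −1.43. Over the alternative settings the adjusted p for testosterone against castration ran from 0.0208 to 0.602, and it passed only with limma array weights, which gave sham 1 a weight of 4.61 and sham 2 one of 0.164.

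Sesn1 has 4 probe sets, and 2 of them carried the pattern without overlap. Both are annotated with the same source sequence, so they are not independent readings. The one used above has the suffix s. The other was dim outside castration. It read 3.46, 2.97 and 3.21 on the testosterone arrays, 4.31, 4.68 and 4.00 on the castration arrays, and 3.11, 2.96 and 3.24 on the sham arrays. Here too the castration arrays stood above all others, with log2 differences of 1.22 for castration against sham and −1.12 for testosterone against castration. Another probe set had the same signs, at 1.00 and −0.70, with castration 2 high at 5.04 and overlap with the other groups. The last stayed between 2.88 and 3.23 on all arrays, at the level of the array medians, and differed by 0.01 and −0.07. Averaged over the 4 probe sets, Sesn1 differed by 0.90 and −0.81.

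**Figure D2:**
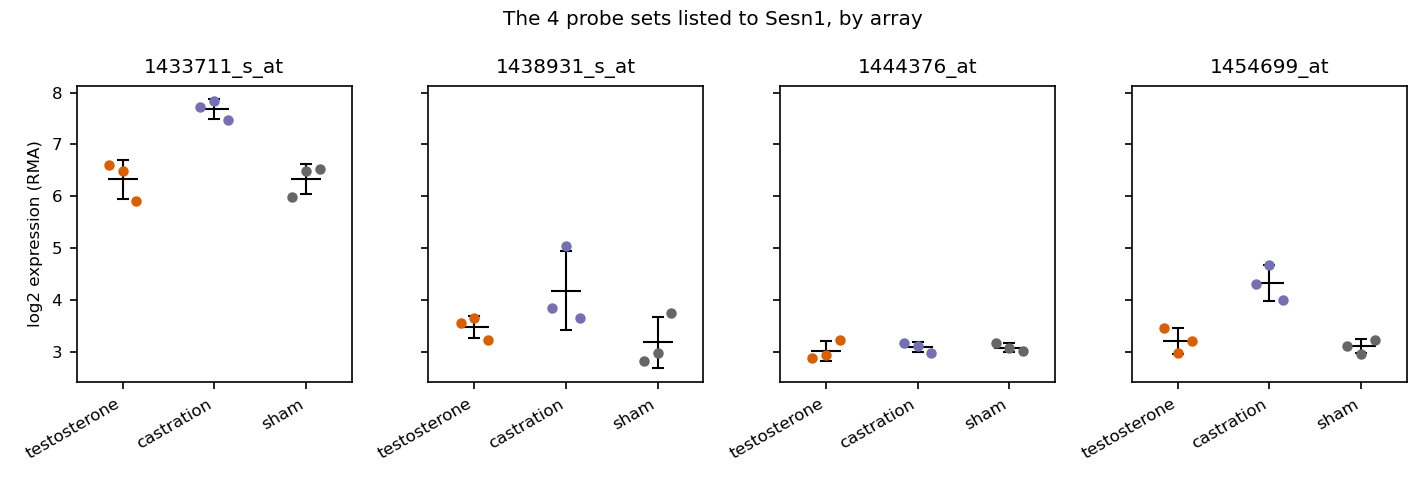
Log2 expression of the 4 probe sets listed to Sesn1 by array, with testosterone, castration and sham arrays as points and the mean with its SD as bars (n = 3). In 2 panels the castration arrays lie above all others, and in the panel near the array medians castration differs from sham by 0.01 and testosterone from castration by −0.07.

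Neither of the other sestrins stood apart without overlap as Sesn1 did. Sesn2, known to be induced by the stress factor ATF4, was dim and read 3.58, 3.71 and 3.93 on the testosterone arrays, 3.65, 3.44 and 3.65 on the castration arrays, and 3.68, 3.88 and 3.62 on the sham arrays. The groups overlapped, and castration differed from sham by −0.15 (95% interval −0.42 to 0.12). The other Sesn2 probe set differed by 0.07, and by −0.17 for testosterone against castration. Sesn3, a FoxO target that restrains mTORC1 as its relatives do, read 5.92, 6.72 and 5.73 on the testosterone arrays, 5.79, 6.46 and 5.92 on the castration arrays, and 5.92, 5.58 and 5.86 on the sham arrays. Testosterone 2 and castration 2 were high and the groups overlapped. The difference was 0.27 (95% interval −0.34 to 0.88) for castration against sham, 0.07 without castration 2 and 0.17 without sham 2, and 0.07 (−0.55 to 0.68) for testosterone against castration. In its second probe set sham 2 alone was low, at 4.15, against 5.23 to 5.94 on the other 8 arrays. There castration differed from sham by 0.57 and testosterone from castration by −0.14, both with overlap.

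Gadd45a, whose protein binds partners in DNA repair and growth arrest and which promotes fibre atrophy after denervation, followed Sesn1 in direction with smaller differences. Its only probe set was dim. It read 3.81, 3.74 and 3.93 on the testosterone arrays, 4.30, 4.20 and 4.10 on the castration arrays, and 3.88, 3.70 and 3.85 on the sham arrays. The lowest castration array was above every other array. The log2 difference was 0.39 (SE 0.09) for castration against sham, a 1.31-fold higher level. Testosterone differed from castration by −0.37 (SE 0.09), with a limma adjusted p of 0.636 over all genes, and from sham by 0.02 (95% interval −0.19 to 0.23).

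Cdkn1a, the cyclin-dependent kinase inhibitor p21, and Mdm2, the ubiquitin ligase that degrades p53, are classic p53 targets. Cdkn1a read 7.71, 7.66 and 7.06 on the testosterone arrays, 7.76, 7.75 and 7.33 on the castration arrays, and 6.80, 7.49 and 7.11 on the sham arrays. The groups overlapped, with a difference of 0.48 (95% interval −0.04 to 1.00) for castration against sham, 0.32 without sham 1, and −0.13 (−0.65 to 0.38) for testosterone against castration. In its dimmer second probe set the castration arrays, at 4.39 to 4.46, lay above the sham arrays, at 4.11 to 4.23, and testosterone 1 was the highest of all, at 4.91. Mdm2 read 7.31, 6.79 and 7.11 on the testosterone arrays, 7.04, 7.16 and 7.10 on the castration arrays, and 7.02, 6.59 and 6.91 on the sham arrays. The lowest castration array, at 7.04, was just above the highest sham array, at 7.02, and the groups differed by 0.26 (SE 0.15), or by 0.14 without sham 2. For Mdm2, testosterone and castration differed by −0.03 (95% interval −0.38 to 0.31). A second Mdm2 probe set overlapped between castration and sham (0.24) and was 0.22 higher with testosterone than in castration, and the last, a dim one, differed by 0.07 there and by −0.07 between castration and sham.

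Of the FoxO factors, Foxo3 stood apart. Foxo3 read 6.41, 6.65 and 6.41 on the testosterone arrays, 6.69, 6.81 and 6.53 on the castration arrays, and 6.39, 6.15 and 6.40 on the sham arrays. Castration was above sham on all arrays, by 0.36 (SE 0.11) or 1.29-fold, with sham 2 lowest. Testosterone lay between, at −0.18 (SE 0.11) from castration and 0.18 (SE 0.11) from sham, limma adjusted p of 1.00 and 0.780 over all genes. Foxo3 has 3 other listed probe sets, which overlapped between castration and sham. They differed by 0.39, by 0.12 and, for the one also listed to another gene, by −0.08, and the last 2 were near the array medians. Without sham 2 and testosterone 2, Foxo3 in testosterone differed from sham by 0.02, and by −0.02 after quantile normalisation was repeated. Under that normalisation, castration and sham overlapped for Foxo3, Klf15 and Mdm2, and their differences were 0.17, 0.31 and 0.06.

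Foxo1, the factor tied most often to muscle atrophy genes, was nearly flat in the probe set that represented it. It read 6.09, 5.99 and 5.99 on the testosterone arrays, 5.92, 5.99 and 5.90 on the castration arrays, and 5.97, 5.99 and 6.05 on the sham arrays. Castration differed from sham by −0.07 (95% interval −0.23 to 0.10) and testosterone from castration by 0.08 (−0.08 to 0.25). With quantile normalisation repeated, castration was below sham on all arrays, by −0.26. Its other 3 probe sets differed between castration and sham by −0.09 to 0.10. They differed by −0.19, 0.15 and 0.01 for testosterone against castration, and by −0.23, 0.25 and −0.08 for testosterone against sham. Foxo4, a close relative, read 7.28, 8.22 and 8.14 on the testosterone arrays, 8.35, 8.38 and 8.14 on the castration arrays, and 8.24, 8.01 and 8.25 on the sham arrays. Testosterone 1 alone was low. Foxo4 in testosterone differed from castration by −0.41 (SE 0.23), and by −0.11 without testosterone 1, while castration differed from sham by 0.13 (95% interval −0.40 to 0.65). The second Foxo4 probe set was dim and differed by −0.01 for castration against sham and 0.05 for testosterone against castration.

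Klf15 read 7.13, 6.67 and 6.72 on the testosterone arrays, 7.20, 7.19 and 7.28 on the castration arrays, and 6.63, 6.99 and 6.57 on the sham arrays. The castration arrays were tightly grouped and above all others, though testosterone 1, at 7.13, was close to the lowest of them, at 7.19. Klf15 was 1.41-fold higher in castration than in sham muscle, a log2 difference of 0.49 (SE 0.15). Testosterone differed from castration by −0.38 (SE 0.15), with a limma adjusted p of 1.00 over all genes, and from sham by 0.11 (95% interval −0.23 to 0.45). Without sham 2 and testosterone 2 the difference between castration and sham was 0.62. Testosterone then differed from castration by −0.30 and from sham by 0.33 (SE 0.13).

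**Figure D3:**
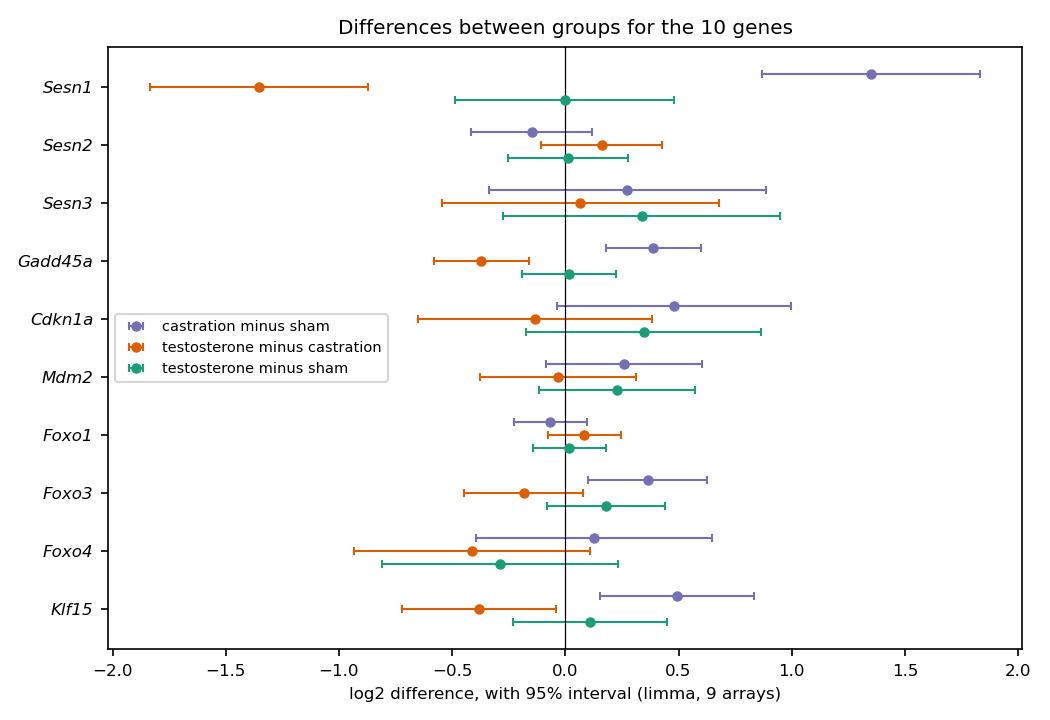
Log2 differences of the 10 genes for castration minus sham, testosterone minus castration and testosterone minus sham, with 95% intervals that are not corrected for the number of genes (limma, 9 arrays). Sesn1, Gadd45a and Klf15 lie right of 0 for castration minus sham, left of 0 for testosterone minus castration, and across 0 for testosterone minus sham.

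Over the 9 arrays, Pearson's r with Sesn1 was 0.80 for Klf15, 0.80 for Gadd45a, 0.69 for Foxo3 and 0.67 for Cdkn1a. It was −0.66 for Sesn2 and −0.44 for Foxo1. The same measure over all genes named the 5 most like Sesn1. These were Ky, a muscle protein of sarcomere upkeep (r = 0.97), the clock output factor Dbp (0.96), Cdkn1c, the kinase inhibitor p57 (0.96), Khnyn (0.94) and Zfp503 (0.93). Most like Gadd45a were the clock gene Per3 (0.96), Slc7a2, a transporter of basic amino acids (0.96), Suclg2, a subunit of succinate-CoA ligase (0.95), the death-domain adaptor Cradd (0.94) and the matrix protein Egflam (0.94). These correlations include the group differences, were ranked out of all the genes left, and carry no test. Cdkn1c read 6.91, 6.73 and 6.26 on the testosterone arrays, 7.22, 7.46 and 7.02 on the castration arrays, and 6.25, 6.57 and 6.57 on the sham arrays. For p57 the castration arrays were above all others.

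**Figure D4:**
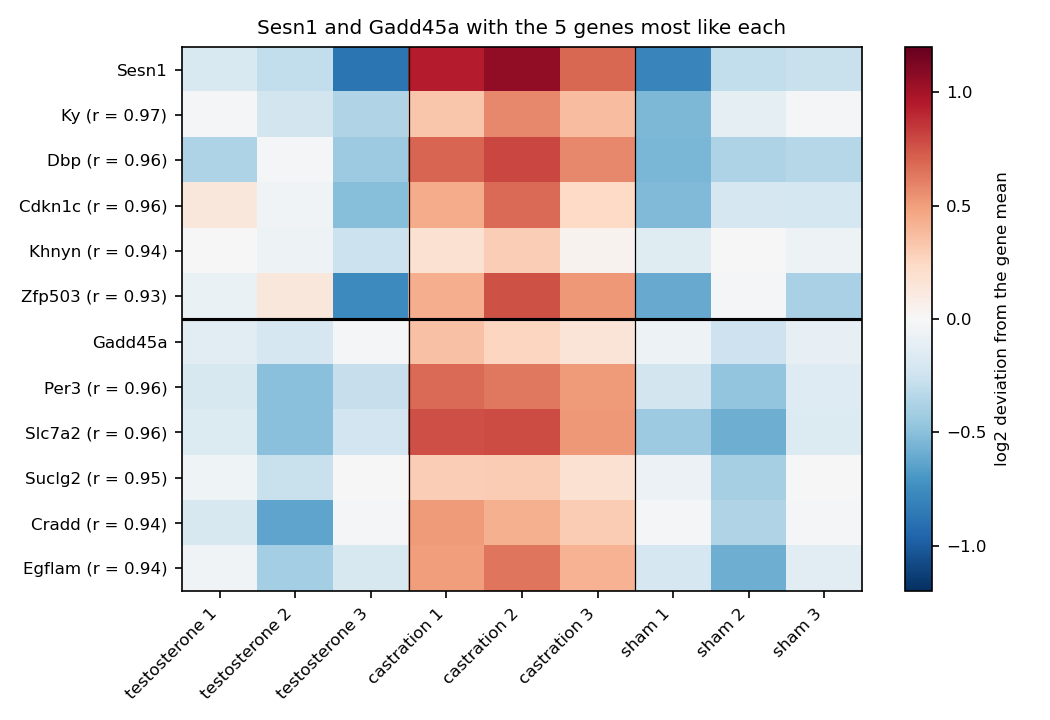
Log2 deviation from each gene's own mean on the 9 arrays (columns: testosterone, castration, sham) for Sesn1 and the 5 genes most like it, then Gadd45a and the 5 most like it, with Pearson's r in the row labels. The castration arrays are above the gene mean in all 12 rows.

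The wider pathways were read from lists of other genes, and no gene in them passed the limma test over all genes. Without overlap, castration was above sham for 5.17% of all genes and below it for 3.72%, and testosterone was above castration for 4.22% and below it for 4.79%. The medians of castration against sham depended on sham 2, as given for each list, while the median over all genes was 0.00 without it. Leaving it out of the lists and of the single genes named from them was chosen after seeing the data. Among 26 measured other p53 targets, 15 were higher and 11 lower in castration than in sham, with a median of 0.15, or 0.02 without sham 2. The arrays did not overlap for 1 higher and 2 lower gene. Phlda3, a p53 target that restrains Akt, went opposite to Sesn1. It read 7.56, 8.54 and 7.89 on the testosterone arrays, 7.23, 6.76 and 6.63 on the castration arrays, and 8.07, 7.58 and 7.83 on the sham arrays, so castration was below all others (−0.95 from sham, SE 0.26). Zmat3, Fas and Pidd1 in castration differed from sham by 0.63, −0.20 and −0.31, and Fas and Pidd1 are dim. Zmat3 differed by 0.41 without castration 2 and by 0.35 without sham 2, and Pidd1 by −0.20 without sham 2. Among 15 genes of p53 regulation, 8 were higher and 7 lower, with a median of 0.01, or −0.07 without sham 2. Cop1, a ubiquitin ligase for p53, did not overlap (0.36, SE 0.14, or 0.21 without sham 2). In testosterone against sham Cd82 was 0.81 and the dim checkpoint kinase gene Atr 0.42 higher, both without overlap. Leaving out sham 2 alone or testosterone 2 alone gave 0.54 for Cd82. Leaving out both gave 0.26 for Cd82 and 0.30 for Atr.

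Among 26 measured other FoxO targets, 17 were higher and 9 lower in castration than in sham, with a median of 0.17. Without sham 2, 12 were higher and 14 lower, with a median of −0.03. The castration arrays lay wholly above sham for 6 of the 26 and below for 0 (5.17% and 3.72% of all genes), and without sham 2 for 6 and 1 (8.64% and 8.55%). Ctsl, the lysosomal protease cathepsin L, read 9.69, 8.81 and 9.19 on the testosterone arrays, 10.37, 10.26 and 10.28 on the castration arrays, and 9.51, 9.28 and 9.28 on the sham arrays. Castration was high throughout for Ctsl, by 0.94 (SE 0.19). Rbl2, Fbxo31 and Map1lc3b, a retinoblastoma relative, a ubiquitin ligase subunit and the autophagy protein LC3B, differed by 1.02, 0.21 and 0.39 without overlap. Without sham 2, Rbl2 differed by 0.67 and Map1lc3b by 0.26. Fbxo32, the atrophy ubiquitin ligase atrogin-1, ran another way: it was at 11.12, 10.79 and 10.62 with testosterone, 10.23, 10.01 and 10.15 in castration and 10.39, 10.42 and 10.05 in sham. Its testosterone arrays were above all others. In testosterone against castration, the arrays of this list did not overlap for 3 higher and 6 lower genes, where 4.22% and 4.79% of all genes did not.

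Of 14 kinases and partners upstream of FoxO, 13 were higher in castration than in sham and all 14 higher in testosterone than in sham, with medians of 0.28 and 0.22. Without sham 2 these counts were 11 and 12, with medians of 0.09 and 0.12. Arrays did not overlap for 1 gene in each, and sham 2 was the lowest array for those named here. Akt1 was 0.63 higher in castration than in sham, with sham 2 at 5.54 against 6.42 and 6.54 in the other sham arrays, and 0.32 higher without sham 2. Ppargc1a, the coactivator PGC-1α, was 1.42 higher in testosterone than in sham, with sham 2 at 6.20 against 7.31 and 6.80. Among 26 sestrin partners, 19 were higher and 7 lower in castration, with a median of 0.13, or 0.04 without sham 2. The arrays did not overlap for 6 higher and 1 lower (5.17% and 3.72% of all genes), and also for 6 and 1 without sham 2 (8.64% and 8.55%). Wdr24, of the GATOR2 complex, was 0.52 higher (SE 0.15) and Prkag3, the AMPK subunit of fast muscle, 0.47 higher (SE 0.14), while Prkag2, a dim AMPK subunit, was lower by −0.39 (SE 0.08).

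In the list of ATF4 and Gadd45 family genes, 6 of 18 were higher and 12 lower in castration, with a median of −0.06, or −0.09 without sham 2. Gadd45g, a close relative of Gadd45a, read 7.78, 7.81 and 7.80 on the testosterone arrays, 7.21, 6.39 and 6.79 on the castration arrays, and 7.35, 7.28 and 6.91 on the sham arrays. With testosterone it was above all other arrays, by 1.00 against castration (limma adjusted p = 0.319), where Gadd45a was lower. Chac1, an ATF4 target that degrades glutathione, was 0.90 higher in castration and 0.70 higher in testosterone than in sham. Without sham 1 these differences were 0.63 and 0.43.

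Among 22 Klf15 and glucocorticoid targets, 16 were higher and 6 lower in castration, with a median of 0.16, and without sham 2 these were 11 and 11, with a median of −0.00. Dbt and Bckdhb, subunits of the enzyme complex that breaks down branched-chain amino acids, were 0.92 and 0.65 higher without overlap, and lower by −0.57 and −0.71 with testosterone than in castration. The last 2 values were −0.38 for Dbt without castration 2 and −0.40 for Bckdhb without testosterone 2. Fkbp5, a glucocorticoid and androgen target, ran opposite, at −1.15 from sham and 1.46 with testosterone against castration (limma adjusted p = 0.0610). Zbtb16 and Cebpd were also higher with testosterone than in castration, by 1.15 and 0.48 without overlap. In that comparison, the arrays of this list did not overlap for 7 higher and 4 lower genes, where 4.22% and 4.79% of all genes did not. Among 12 denervation genes 6 were higher and 6 lower, with a median of 0.01, or −0.09 without sham 2. Myog, the myogenic factor that rises in denervated muscle, was 1.21 higher (SE 0.19), and Chrna1, an acetylcholine receptor subunit, 0.39 higher with overlap, whereas Runx1 was lower by −0.24 and the dim Chrng by −0.10. Among 15 cell cycle genes 11 were higher and 4 lower, with a median of 0.07, or 0.05 without sham 2. Cdkn1c was 0.77 higher and Cdkn2c, an inhibitor of Cdk4, lower by −0.32, both without overlap.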

How the data were processed

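Expression was measured in 9 pools of gastrocnemius RNA on Affymetrix arrays of 45101 probe sets. Groups and replicate numbers came from the sample titles. The deposited values are log2 expression per probe set, and the submitters' processing notes name RMA, which corrects background, quantile-normalises arrays and summarises probes. The notes name no version. Values were used as deposited, and no filter was set on low values.

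The platform annotation listed 34945 probe sets to 1 gene, 932 to several and none for 9160, besides 64 controls. Symbols were updated through the RefSeq gene table, and 204 probe sets without a match there kept theirs. Each gene was represented by its probe set with the highest mean. Differences were fitted over 18193 genes with limma 3.58.1 in R 4.3.3 (lmFit, eBayes) to the 9 arrays together, with a term for group and no other. The series' design names a 1-way ANOVA. Tests were two-sided with Benjamini-Hochberg adjustment over all genes and a threshold of 0.05. The script was tested on simulated data.

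The genes, lists and alternatives were chosen with earlier results of these data known. From each list, up to 4 genes with the smallest p in castration against sham and 2 in testosterone against sham were eligible to be named, beside the 5 genes most correlated with Sesn1 and with Gadd45a. The design describes the pools as biological replicates. The number of arrays, 3 per group, limits the precision. No 2 arrays shared over 5.78% of identical values. The sample titles number the replicates but state no pairing. Deviations from the group means correlated between −0.49 and 0.27 for same-numbered arrays. With 3 arrays per group, these values cannot show whether the numbers pair the samples. The arrays that stood apart, sham 2 and testosterone 2, share a replicate number.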

Additional observations from a re-analysis of the deposited data

How the results depend on the processing

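With limma array weights, Sesn1 and Klf15 passed in castration against sham, 2 of the 10 genes (of 174 over all genes), and Sesn1 in testosterone against castration, 1 of 10 (of 59). The genes were chosen on castration against sham in these same arrays, so nothing is read from the passes there. Nor is anything read from the pass in testosterone against castration, which uses the same castration arrays. Those weights were 4.61 for sham 1 and 0.164 for sham 2. The adjusted p of Sesn1 in testosterone against castration ran from 0.0208 to 0.602 over the alternatives. Of the 10 genes, 0 passed with a replicate block, only the compared groups, all probe sets, mean probe sets, no probe sets with suffix x or s, genes with a mean of at least 5 (which removes Sesn2 and Gadd45a), quantile normalisation repeated, arrays centred on medians, robust variances, a trend with intensity, no moderation (also in the F test), each array left out, and sham 2 and testosterone 2 both left out. The sample titles state no pairing by replicate number, and the block gave 0 in each comparison. Genes without overlap numbered 3 instead of 5 in castration against sham after repeated quantile normalisation (Sesn1, Gadd45a and, lower, Foxo1). Of all genes, 11.3% did not overlap there. In testosterone against castration they numbered 5 without both arrays, and 3 to 6 leaving out 1 array, where 9.01% to 20.7% of all genes did not overlap. In testosterone against sham they numbered 0 after repeated quantile normalisation or centring, where 8.31% and 8.1% of all genes did not overlap. They numbered 4 without both arrays, and 1 to 3 leaving out 1 array, where 6.47% to 25.4% of all genes did not. The cause was not tested, except that fewer arrays overlap less often: without both arrays 17.2%, 17.3% and 24.2% of all genes did not overlap in the 3 comparisons. Of 654 differences of single genes under an alternative, 640 moved by less than the SD within groups and 11 by more, and the other 3 newly passed.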

Other observations

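Some probe sets held the same value on several arrays. For Foxo1 the value 5.99 stood on testosterone 2, testosterone 3, castration 2 and sham 2, and for the second probe set of Sesn2 the testosterone arrays read 3.24, 3.24 and 3.24, an SD of 0.002.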
